A study of Mus musculus with 28 samples.

Results

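The mRNA of glutathione and antioxidant enzymes was followed through skin wound healing in mice, from day 0 to day 14. The genes were selected by their symbols and by name. They comprised the glutathione transferases of the alpha (4 genes), kappa (1), mu (7), omega (2), pi (3) and theta (4) classes, the microsomal transferases Mgst1 to Mgst3, 6 glutathione peroxidases, 6 peroxiredoxins, 3 superoxide dismutases and 3 thioredoxin reductases. Nqo1, Gclc, Gclm, Srxn1, Cat and Gsr were added by name, which gave 48 of the 29068 genes in the count table. The filter on low counts was passed by 47 of them, and Gstm3, with 1 to 11 counts per library, was not tested. Gpx5 and Gpx6 were not analysed here.

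Skin was taken from C57BL/6J mice that were wild type for MLKL and were left to heal without treatment. The wound was a punch excision on the back down to the fascia, and the whole wound site was sampled, scab and epithelial margins included. The mice were 8 weeks old and of both sexes. The labels give 4 libraries for each of days 0, 3, 5, 7, 10, 12 and 14, 28 in all, with day 0 as the control (the methods of the study name day 1 as the first day of sampling, and the design text speaks of 5 repeats, of which 4 a day were analysed here). The labels do not tie a library to an animal, so p-values measure the spread between these libraries, which may in part be technical. Each library held 36706513 to 40655764 counts, with a median of 39499595. Levels are given as FPKM (fragments scaled to gene length and library total), which allows a comparison between genes. Fold changes come from edgeR's quasi-likelihood test on the counts, and their p-values were adjusted (Benjamini-Hochberg) across all 18107 tested genes. FPKM are scaled to the library total and the test to TMM factors. Without these factors the median log2 fold change of all genes moved from -0.04 to 0.11 on day 12, from -0.06 to 0.07 on day 14 and from 0.04 to 0.22 between days 3 and 14, so that the ratio of the FPKM is slightly above the tested change there.

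Superoxide dismutases turn superoxide into hydrogen peroxide, and catalase, the glutathione peroxidases and the peroxiredoxins remove peroxides. Glutathione peroxidases draw on glutathione, which the glutamate-cysteine ligase subunits Gclc and Gclm begin to make and which glutathione reductase (Gsr) returns to its reduced form. Peroxiredoxins draw on thioredoxin, which thioredoxin reductases renew, and sulfiredoxin (Srxn1) restores overoxidised peroxiredoxins. Glutathione transferases couple glutathione to reactive compounds. Many of these genes are known targets of the transcription factor Nrf2 (gene Nfe2l2), which Keap1 holds in check. In a skin wound, neutrophils and macrophages release superoxide early, before new epidermis and hair follicles form.

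Glutathione peroxidases were the most abundant family at each time point, and Gpx3, the secreted plasma form, had the highest mean level over all libraries (891 FPKM). It was followed by Gpx1 (409.8 FPKM), Prdx1 (388 FPKM), Sod1 (309.8 FPKM) and Mgst1 (280.3 FPKM). At the other end of this scale stood Gstt4 (0.180 FPKM) and Gstm3 (0.0904 FPKM). The widest course over time was that of Gsta3, whose highest and lowest daily means differed by 18.4 times, and the flattest that of Gstm4, with 1.15 times. Of the 47 genes tested, 12 had their highest mean FPKM on day 0, 11 each had it on days 3 and 14, and 4, 6 and 3 had it on days 5, 7 and 10, which left none for day 12. The lowest mean fell on day 3 for 14 genes and on days 0 and 12 for 11 genes each.

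**Figure D1:**
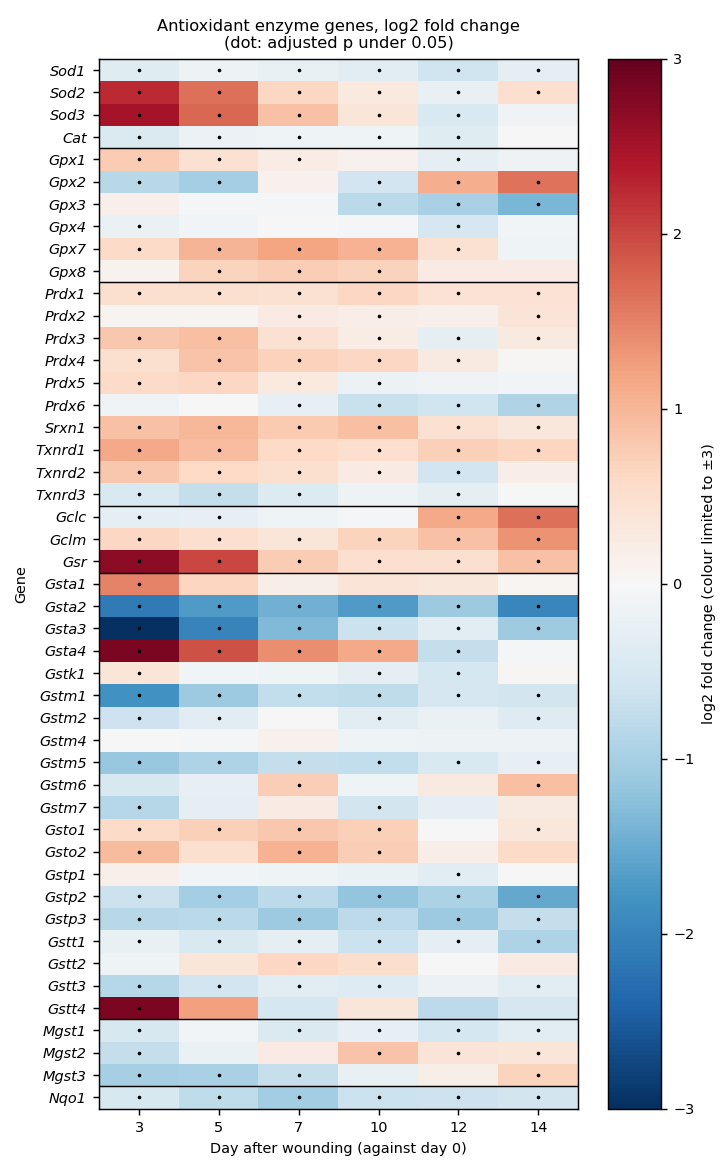
Log2 fold change of 47 antioxidant enzyme genes (rows, ordered by role) on days 3 to 14 against day 0 (columns), 4 libraries a day. Red is higher and blue lower, colours stop at 3 in either direction, and a dot marks an adjusted p under 0.05. Gsta4, Gstt4, Gsr, Sod3 and Sod2 were darkest red on day 3, and Gclc and Gpx2 turned red on days 12 and 14.

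The libraries of day 0 were less alike than those of the other days. The biological coefficient of variation was 26.4% among them and 5.70% to 10.8% within the later days, and since each gene has 1 dispersion for all days in the fit, its standard errors understate the spread of day 0. Libraries 1 and 4 of day 0 stood apart from libraries 2 and 3. The summed FPKM of 8 fibroblast markers was 5490.2 and 3358 in the first pair and 12713 and 12285 in the second, and that of 10 skeletal muscle markers was 20286 and 21935 against 13154 and 13549. Gpx3, Gpx8, Gsta1, Gsta4, Gsto1, Gstp2, Gstt2, Mgst3 and Prdx6 were among the genes whose libraries were split in the same way, and examples of their fold changes are given with either pair left out.

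Cell type markers moved with the time points too. All 10 neutrophil markers rose on day 3, when their summed FPKM was 7701 to 9831 against 17.7 to 66.5 on day 0, where Ngp was at 0 in all 4 libraries. All 10 macrophage markers rose on day 3 (4101 to 4226 against 1691 to 2319) and fell on day 14 (882 to 973). All 10 muscle markers fell on each day (2758 to 3561 on day 3). The 11 hair follicle markers fell on day 3 (1.86 to 5.20 against 122 to 904) and rose on days 12 and 14 (2823 to 3652 on day 14), and so did the 6 melanocyte markers. Of the 6 wound-edge keratinocyte markers 5 rose on day 3 (1548 to 1889 against 278 to 409). Of the 6 brown adipocyte markers 5 rose and 1 fell on day 3 (1045 to 1353 against 303 to 410.4). On day 12, 2 of these 6 rose and 3 fell (178 to 196), and on day 14 all 6 rose (853.9 to 1109). The part of these cell types in the changes below was not tested, and in a bulk sample fewer cells of a type cannot be told apart from less RNA per cell. Markers of interfollicular keratinocytes were present in every library (1624 to 3315 on day 0), as the labelled tissue implies. Of these 8 markers, 6 fell and 1 rose on day 3, and 4 fell and 1 rose on day 5. On days 7 and 10, 5 and 4 fell and 2 rose, and their part was not tested either.

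**Figure D2:**
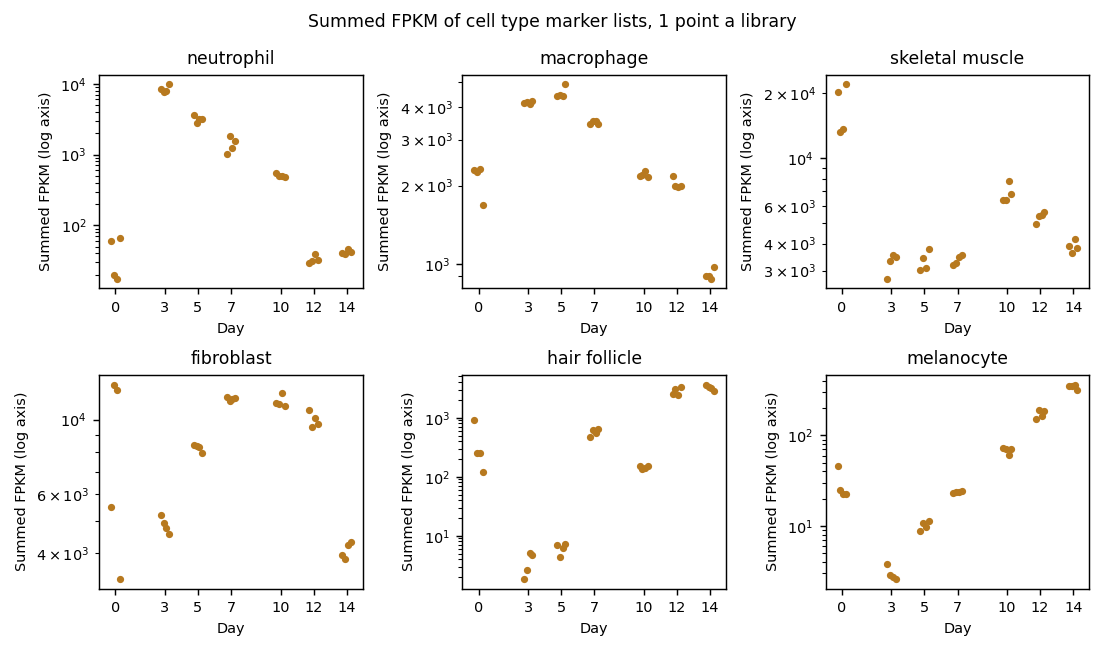
Summed FPKM of 6 lists of cell type markers in each of the 28 libraries (points, log axis) by day. Neutrophil markers peak on day 3, hair follicle and melanocyte markers are lowest on day 3 and highest on day 14, and the fibroblast markers of day 0 form 2 pairs.

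On day 3, 19 of the 47 genes rose and 20 fell against day 0 at an adjusted p under 0.05, where 31.8% and 34.8% of all genes tested did. On day 5, 16 rose and 16 fell (all genes: 29% and 30.6%). On day 7, 20 rose and 15 fell (25.6% and 24.8%). On day 10, 18 rose and 19 fell (23.5% and 26.9%). On day 12, 10 rose and 23 fell (21.7% and 25.6%), and without composition normalization these were 13 and 16. On day 14, 14 rose and 14 fell (28.2% and 34.5%), and without composition normalization 20 and 12. The median log2 fold change of the 47 genes lay between -0.27 (day 12) and 0.14 (day 7), beside -0.04 and 0.00 over all genes. All 6 comparisons share the libraries of day 0. Among the 6 wound days alone, 43 of the 47 genes differed (85.1% of all genes); Prdx1, Gstm4, Gstp3 and Gsta1 did not pass, with adjusted p-values of 0.0548 to 0.206 in edgeR's joint test.

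Few genes passed the larger limits of the study's methods, a log2 fold change over 1.5 with an unadjusted P under 0.05. On day 3 they were Gsta4, Gstt4, Gsr, Sod3 and Sod2, which rose (6.5% of all genes passed upwards), and Gsta3, Gsta2 and Gstm1, which fell (12.4%). On day 5 Gsr, Gsta4, Sod3 and Sod2 still passed upwards (5.61%) and Gsta3 and Gsta2 downwards (8.31%), of which 1 remained without library 1 of day 5. On day 7 no gene passed in either direction (4.66% and 4.74%), though 1 did upwards without library 1 of day 0, and 1 downwards without library 3 of day 0 or library 4 of day 7. On day 10 no gene passed upwards (4.33%) and Gsta2 passed downwards (5.14%), and on day 12 none did in either direction (3.89% and 3.51%). On day 14 Gclc and Gpx2 passed upwards (5.15%) and Gsta2 and Gstp2 downwards (8.83%), where 1 was left without library 2 or 3 of day 0 or library 2 or 4 of day 14.

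Over the whole course, 5 of the 47 genes, Gclm, Gsr, Prdx1, Srxn1 and Txnrd1, were higher than on day 0 on all 6 wound days (4.76% of all 18107 genes tested). Gsta2, Gsta3, Gstm1, Gstm5, Gstp2, Gstp3, Gstt1, Nqo1 and Sod1, 9 of the 47, were lower on all 6 (9.76% of all genes). A further 12 genes rose on some days and fell on others (23.8% of all genes), 10 rose on some days only (26.7%) and 10 fell on some days only (25.7%). Gstm4 passed the test on none (edgeR adjusted p of at least 0.29), as did 9.24% of all genes. The calls of the first 5 genes held in each alternative tried. Of the 9 others, Sod1 on days 5 and 7, Gstt1 on days 3 and 12, Gsta3 on day 12, Gstm5 on day 14, and Gstp2 and Nqo1 on day 3 lost their call in at least 1 alternative.

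Sod2 and Sod3 changed most in the early wound, and Sod1 on day 12. Sod3, the extracellular enzyme, was at 34.5, 32.7, 32.4 and 26.8 FPKM in the 4 libraries of day 0 and at 166, 174, 174 and 168 FPKM on day 3. Every library of day 3 was far above those of day 0 (log2 fold change 2.49, standard error 0.077, or 5.61-fold, edgeR adjusted p = 2.1e-20). The rise shrank to 1.73, 0.88 and 0.36 on days 5, 7 and 10, and by day 12 the gene was below day 0 (log2 fold change -0.46, standard error 0.074, edgeR adjusted p = 8.3e-06). On day 14, at 29.5 to 35.3 FPKM, it overlapped with day 0 again (edgeR adjusted p = 0.2).

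Sod2, the mitochondrial enzyme, took the same early course. It stood at 27.7, 25.1, 24.7 and 31.7 FPKM on day 0 and at 118, 124, 129 and 128 FPKM on day 3, without overlap (log2 fold change 2.25, standard error 0.072, edgeR adjusted p = 6.2e-20). Days 5, 7, 10 and 14 followed with log2 fold changes of 1.64, 0.61, 0.29 and 0.49. Day 10 was not called without libraries 2 and 3 of day 0 (0.17). Day 12 gave -0.22, a call that was lost without library 4 of day 0 (-0.12) and without composition normalization (-0.07). Of the Sod2 transcript sequence, 21% of 50-base words also occur in other annotated genes, mostly AC166110.4, and reads from these could not be separated.

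Sod1, the cytosolic enzyme and the most abundant of the 3, moved little and downwards. It was at 349 to 397 FPKM on day 0, 263 to 279 FPKM on day 3 and 255 to 279 FPKM on day 12. The largest fall was on day 12 (log2 fold change -0.59, standard error 0.068, edgeR adjusted p = 5.3e-08), against -0.36 for day 3. Day 5 gave -0.16 (edgeR adjusted p = 0.046), and this call was lost without library 1 or 4 of day 0 (-0.15 and -0.10) and without library 1, 2 or 3 of day 5 (-0.13, -0.15 and -0.11). Catalase (Cat), the peroxisomal enzyme that splits hydrogen peroxide, was lowest on day 3, at 109.5, 121, 120.4 and 122 FPKM against 163, 161, 159 and 180.2 FPKM on day 0 (log2 fold change -0.43, standard error 0.053, edgeR adjusted p = 5.6e-08). It was again lower on day 12 (-0.36) and overlapped with day 0 on day 14 (173 to 184 FPKM, edgeR adjusted p = 0.86). Its small falls on days 7 and 10, each of 0.13, were lost in 9 and 15 of the alternatives. On day 7 these included leaving out library 1 or 4 of day 0 or library 2 or 4 of day 7 (-0.13, -0.09, -0.10 and -0.11), and on day 10 library 1 or 4 of day 0 or library 1, 3 or 4 of day 10 (-0.13, -0.08, -0.10, -0.13 and -0.13).

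**Figure D3:**
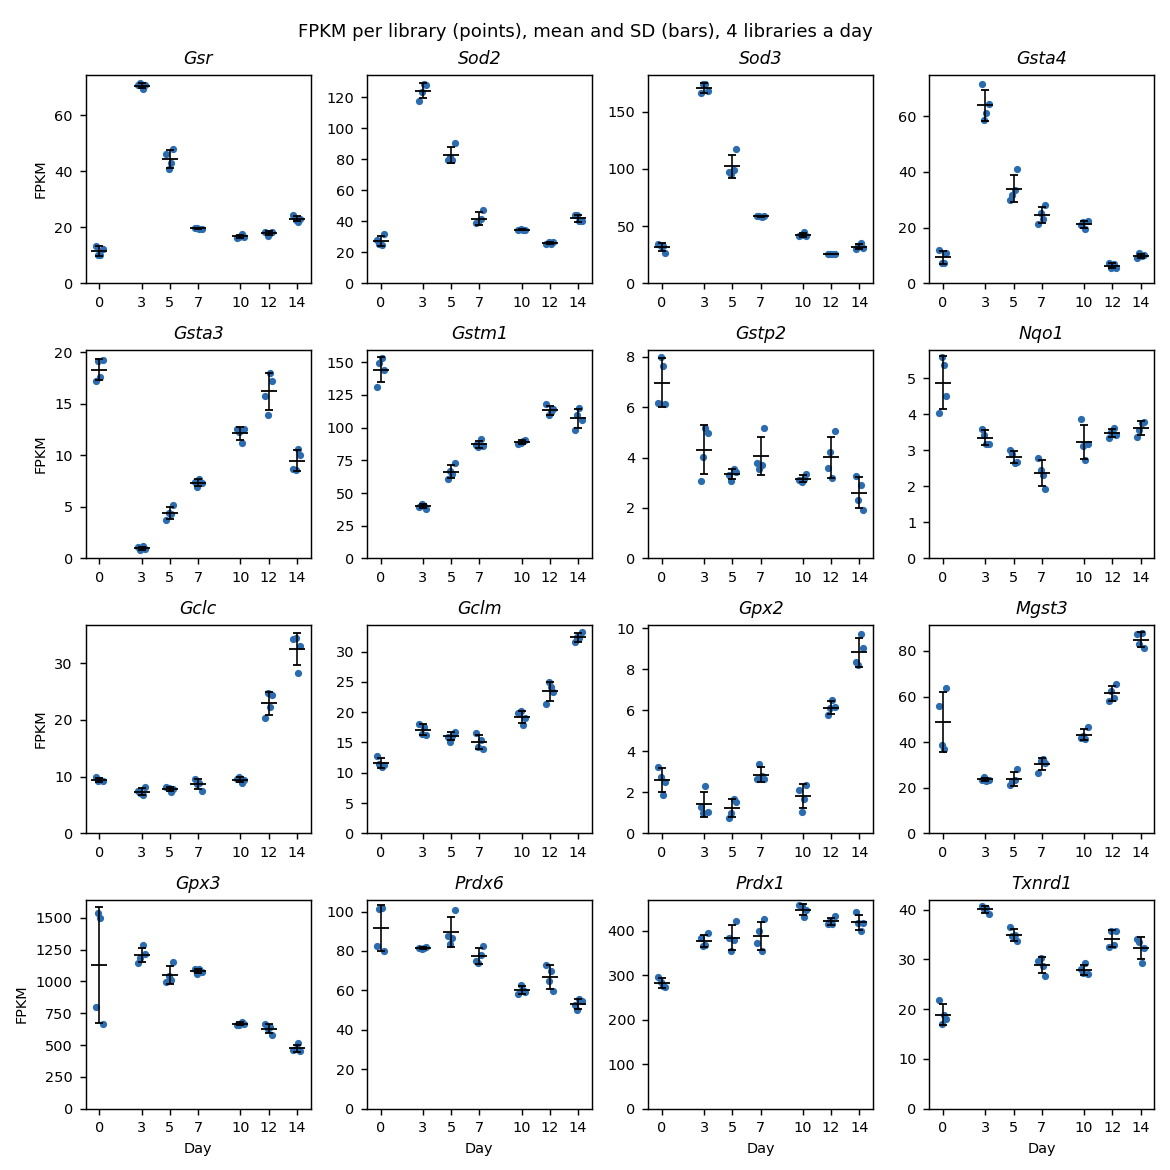
FPKM of 16 antioxidant enzyme genes in each library (points) with mean and SD (bars) by day, 4 libraries a day. Gsr, Sod2, Sod3 and Gsta4 peak on day 3, Gsta3 and Gstm1 are lowest there, Gclc, Gclm, Gpx2 and Mgst3 are highest on day 14, and the 4 libraries of day 0 split into pairs for Gpx3.

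Glutathione peroxidases each had a course of their own. Gpx1, the ubiquitous cytosolic form, was at 376, 329, 334 and 365 FPKM on day 0 and 576, 570.0, 590.0 and 568 FPKM on day 3, all above day 0 (log2 fold change 0.77, standard error 0.069, edgeR adjusted p = 1.2e-10). It stayed higher on days 5 and 7 (0.46 and 0.22, the latter 0.13 and not called without libraries 2 and 3 of day 0) and was lower on day 12 (-0.27), though not without composition normalization (-0.13).

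Gpx2, a form known from epithelia, fell first and then rose. Its libraries held 3.24, 2.75, 1.88 and 2.53 FPKM on day 0, 0.743, 1.01, 1.68 and 1.55 FPKM on day 5 and 8.34, 8.20, 9.72 and 9.03 FPKM on day 14. Day 5 lay below day 0 (log2 fold change -1.02, standard error 0.25, edgeR adjusted p = 0.001) and day 14 above it (log2 fold change 1.63, standard error 0.23, edgeR adjusted p = 7.3e-07). The rise was already present on day 12 (1.09, 5.77 to 6.52 FPKM). From day 3 to day 14 it grew 5.51-fold (log2 fold change 2.46, standard error 0.25, edgeR adjusted p = 9.3e-10).

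Gpx3 was high in 1 pair of day 0 libraries and low in the other. The libraries of day 0 held 800.4, 1539.6, 1503 and 667 FPKM, those of day 3 1147 to 1284 FPKM and those of day 14 454 to 515 FPKM. Days 3, 5 and 7 lay between the pairs of day 0 and did not pass the test (edgeR adjusted p = 0.38, 0.76 and 0.77). All libraries of day 14 were below day 0 (log2 fold change -1.37, standard error 0.16, edgeR adjusted p = 2.3e-08). This fall was -1.80 without libraries 1 and 4 of day 0 and -0.68 without libraries 2 and 3, and that of day 10 (-0.81, with overlapping libraries) was -1.24 and -0.20. Day 14 against day 3, which needs no library of day 0, gave -1.53, standard error 0.16 (edgeR adjusted p = 2.3e-09).

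Gpx7 and Gpx8, which act in the endoplasmic reticulum, rose in the middle of the course. Gpx7 was at 24.5, 24.7, 25.4 and 17.0 FPKM on day 0 and 51.9, 50.9, 50.4 and 53.9 FPKM on day 7 (log2 fold change 1.17, standard error 0.097, edgeR adjusted p = 6.0e-11). Days 5 and 10 were close to this (1.02 and 1.05), and by day 14 the gene was back at 20.1 to 25.3 FPKM (edgeR adjusted p = 0.23). Gpx8 was higher on days 5, 7 and 10 (0.67, 0.74 and 0.70), where it reached 61.3 to 71.1 FPKM on day 7 against 29.9, 51.5, 47.4 and 28.3 FPKM on day 0. These rises were 0.34, 0.41 and 0.37 without libraries 1 and 4 of day 0 and 1.11, 1.17 and 1.13 without libraries 2 and 3. Summed fibroblast markers were at 7953 to 8404 FPKM on day 5. Days 7 and 10 had 11363 to 11688 and 10987 to 12008 FPKM, and the libraries of day 0 had 3358 to 12713 FPKM. Of the 8 markers, 2 rose and 1 fell on day 5, and 3 rose and 0 fell on day 7. On day 10, 4 rose and 2 fell, and the part of these cells was not tested. Gpx4, which reduces lipid peroxides and guards against ferroptosis, fell on day 12 (log2 fold change -0.51, standard error 0.07, edgeR adjusted p = 8.3e-07), from 269 to 304 to 213 to 225 FPKM. Its fall on day 3 (-0.20) was lost without library 4 of day 0 (-0.12) and without library 1 or 2 of day 3 (-0.10 and -0.14), and 34.7% of its 50-base words are shared with Gpx4-ps2.

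**Figure D4:**
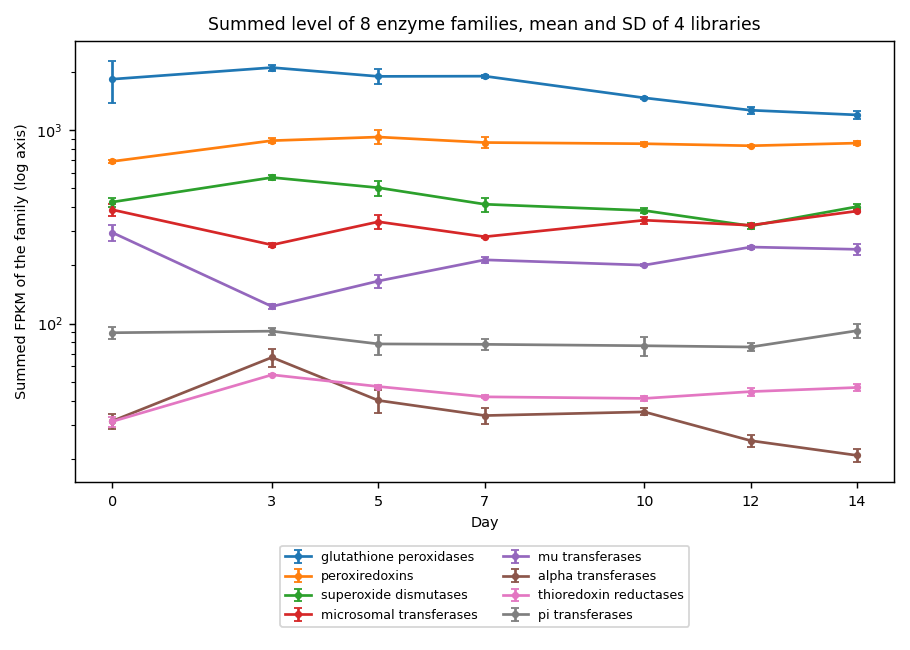
Summed FPKM of 8 enzyme families by day (log axis), as the mean and SD of 4 libraries. Peroxiredoxins and thioredoxin reductases are lowest on day 0, mu transferases drop on day 3, and alpha transferases peak there.

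Of the 6 peroxiredoxins, 4 rose on day 3, namely Prdx1, Prdx3, Prdx4 and Prdx5 (31.8% of all genes rose), and Prdx2 and Prdx6 did not pass the test. Their summed level, for which no test was made, was 687 ± 14.5 FPKM on day 0 and 879.5 ± 26.1 FPKM on day 3 (mean ± SD, n = 4), with means between 828 and 918 FPKM on the later days. Prdx1, the cytosolic form and the most abundant, was at 296, 285, 275 and 272 FPKM on day 0 and 458, 456, 429.8 and 445 FPKM on day 10, its highest day (log2 fold change 0.61, standard error 0.057, edgeR adjusted p = 9.3e-10). On the other days its log2 fold change lay between 0.43 and 0.49, and the 6 wound days did not differ among themselves in the joint test (edgeR adjusted p = 0.0548). Prdx3, the mitochondrial form, peaked on day 5 at 95.4 to 111 FPKM against 49.7 to 60.6 FPKM (log2 fold change 0.89, standard error 0.063, edgeR adjusted p = 1.5e-12). Prdx4, the form of the secretory pathway, peaked on the same day (log2 fold change 0.86, standard error 0.063, edgeR adjusted p = 3.4e-12), as did Prdx5 (log2 fold change 0.63, standard error 0.068, edgeR adjusted p = 7.0e-09). Prdx5 shares 15.5% of its 50-base words with Trmt112.

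Prdx2, abundant in red cells, rose most on day 14 (log2 fold change 0.39, standard error 0.067, edgeR adjusted p = 1.3e-05), from 94.3 to 109 to 138 to 155 FPKM. It was also higher on days 7 and 10 (0.25 and 0.20), the latter not called without library 2 of day 0 (0.16). Summed erythroid markers went from 246 to 369.9 FPKM on day 0 to a peak of 1891 to 2316 FPKM on day 3, and day 14 had 344 to 456 FPKM. On day 3 Prdx2 did not pass the test (edgeR adjusted p = 0.35), and the part of red cells in its course was not tested. Prdx6, which uses glutathione instead of thioredoxin, was the peroxiredoxin with the largest fall. It stood at 82.7, 101, 102 and 79.9 FPKM on day 0, 81.0 to 82.0 FPKM on day 3 and at most 55.7 FPKM in the libraries of day 14, below every library of day 0 (log2 fold change -0.91, standard error 0.078, edgeR adjusted p = 8.8e-11). This fall was -1.05 without libraries 1 and 4 of day 0 and -0.67 without libraries 2 and 3. Day 14 was also below day 3 (-0.80).

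Txnrd1, Txnrd2 and sulfiredoxin rose from day 3, and Txnrd3 fell. Txnrd1, the cytosolic reductase, was at 21.7, 17.0, 18.7 and 18.0 FPKM on day 0 and 40.8, 40.1, 40.3 and 39.2 FPKM on day 3, 2.21-fold higher (log2 fold change 1.14, standard error 0.064, edgeR adjusted p = 6.4e-15). It remained above day 0 by 0.51 to 0.93 on the log2 scale on the later days. Txnrd2, the mitochondrial reductase, rose on day 3 (log2 fold change 0.81, standard error 0.10, edgeR adjusted p = 5.6e-08) and fell on day 12 (-0.56, 3.57 to 5.02 against 5.33 to 6.22 FPKM). Txnrd3, a form known from testis, went the other way, lowest on day 5 (log2 fold change -0.71, standard error 0.084, edgeR adjusted p = 3.9e-08). Srxn1 was at 13.4, 9.76, 9.82 and 10.2 FPKM on day 0 and 21.7, 20.7, 21.4 and 20.3 FPKM on day 5 (log2 fold change 1.00, standard error 0.072, edgeR adjusted p = 2.2e-12). By day 14 it had come down to 13.8 to 15.5 FPKM, just above library 1 of day 0, at a log2 fold change of 0.33 (edgeR adjusted p = 0.00023).

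Of the genes of glutathione recycling and synthesis, Gsr had its highest mean level on day 3, and Gclc and Gclm had theirs on day 14. Gsr, glutathione reductase, was at 13.4, 9.99, 10.1 and 12.4 FPKM on day 0, 70.8, 71.5, 69.4 and 70.7 FPKM on day 3 and 46.3, 40.7, 43.0 and 47.9 FPKM on day 5. Day 3 was 6.40-fold above day 0 (log2 fold change 2.68, standard error 0.077, edgeR adjusted p = 4.6e-21), the third largest rise among the 47 genes on that day. From day 7 to day 12 the rise was 0.77 to 0.49, and it was 0.88 on day 14.

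Gclc, the catalytic subunit of glutamate-cysteine ligase, stayed low until day 10. It was at 10.0, 9.18, 9.33 and 9.28 FPKM on day 0 and slightly lower on days 3 and 5 (-0.30 and -0.24). On day 12 it was at 20.4, 24.7, 22.2 and 24.4 FPKM and on day 14 at 34.2, 34.4, 28.3 and 33.0 FPKM, 3.14-fold above day 0 (log2 fold change 1.65, standard error 0.073, edgeR adjusted p = 2.4e-16). Against day 3 the rise was 3.87-fold (1.95). Gclm, the modifier subunit, was higher from day 3 on, at 12.7, 11.5, 10.9 and 11.3 FPKM on day 0, 16.3 to 18.1 FPKM on day 3 and 31.5, 32.4, 32.3 and 33.3 FPKM on day 14, the last without overlap with any other day (log2 fold change 1.35, standard error 0.061, edgeR adjusted p = 3.7e-16). The ratio of the daily mean FPKM thus shifted between the subunits, since Gclm rose on day 3 (0.61) where Gclc fell. Hair follicle markers were also high on days 12 and 14 (2412 to 3259 and 2823 to 3652 FPKM), and their part in the late rise was not tested.

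Promoters are shown for Gclm, Prdx1 and Srxn1, which rose on every wound day, and for Gsta3, which fell on every one, because they carry the letters of the antioxidant response element, the site known to be bound by Nrf2. The letters searched were TGACNNNGC on either strand, in RefSeq windows (GRCm38.p6, the patch of mm10) from 250 bases before to 50 after the start site. The match is in capitals, read on the gene's own strand 5′ to 3′.
Gclm: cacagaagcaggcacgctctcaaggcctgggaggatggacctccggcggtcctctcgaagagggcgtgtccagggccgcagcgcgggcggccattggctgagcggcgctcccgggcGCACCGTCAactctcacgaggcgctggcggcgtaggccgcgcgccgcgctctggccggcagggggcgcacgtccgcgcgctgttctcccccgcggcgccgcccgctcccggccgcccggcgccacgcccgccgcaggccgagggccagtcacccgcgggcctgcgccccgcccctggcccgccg
Prdx1: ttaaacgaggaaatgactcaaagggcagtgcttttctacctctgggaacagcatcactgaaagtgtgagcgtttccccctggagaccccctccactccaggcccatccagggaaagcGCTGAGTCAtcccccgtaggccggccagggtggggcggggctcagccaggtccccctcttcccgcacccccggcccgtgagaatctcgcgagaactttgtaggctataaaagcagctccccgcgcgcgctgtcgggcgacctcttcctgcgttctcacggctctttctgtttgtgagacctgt
Srxn1: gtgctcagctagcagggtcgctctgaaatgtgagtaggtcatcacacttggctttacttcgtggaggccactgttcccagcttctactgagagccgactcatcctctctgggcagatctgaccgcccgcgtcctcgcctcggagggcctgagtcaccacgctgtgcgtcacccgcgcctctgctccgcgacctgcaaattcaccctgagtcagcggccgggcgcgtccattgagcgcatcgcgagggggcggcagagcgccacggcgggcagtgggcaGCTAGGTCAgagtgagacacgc
Gsta3: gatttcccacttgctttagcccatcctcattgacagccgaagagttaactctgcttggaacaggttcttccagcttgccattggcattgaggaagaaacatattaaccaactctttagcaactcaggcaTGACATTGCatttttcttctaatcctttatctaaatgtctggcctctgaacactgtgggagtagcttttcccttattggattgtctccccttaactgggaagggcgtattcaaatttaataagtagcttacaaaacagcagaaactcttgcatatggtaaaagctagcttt
These windows lie at chr3:122245307-122245606, chr4:116685349-116685648, chr2:152105274-152105573 and chr1:21240335-21240634, all on the plus strand. The match begins 134, 133 and 121 bases before the start site in Gclm, Prdx1 and Gsta3 and 29 bases after it in Srxn1, and in the first 3 of the windows listed it is on the opposite strand.

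Of 42 genes of the set with a window, 9 held the letters (21.4%), as did 14% of 27025 genes with a window, and the shares were not tested against each other. The 9 were Gclm, Prdx1, Srxn1 and Txnrd1, which were higher on all 6 wound days, Gsta3, Gstm5 and Sod1, which were lower on all 6, and Gstm7 and Mgst1, which fell on some. The match was thus present in genes of either direction. A match is a description of letters and not a bound site. Gclc, Gsr, Gsta4, Gstt2, Prdx6 and Sod3 had no window.

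Alpha class transferases held the largest rise and the largest fall of the whole set on day 3. Gsta4, which removes the lipid peroxidation product hydroxynonenal, was at 11.9, 7.37, 7.25 and 10.8 FPKM on day 0 and 71.6, 58.5, 61.1 and 64.3 FPKM on day 3, 7.11-fold higher with no overlap (log2 fold change 2.83, standard error 0.14, edgeR adjusted p = 3.1e-16). Without libraries 1 and 4 of day 0 this was 3.19, and without libraries 2 and 3 it was 2.59. The level came down to 21.2 to 27.9 FPKM on day 7 (1.38) and was below day 0 on day 12 at 5.37 to 7.18 FPKM (log2 fold change -0.71, standard error 0.14, edgeR adjusted p = 0.00014), with -0.36 and -0.99 when these pairs were left out. On day 14, at 9.05 to 10.8 FPKM, it lay within the range of day 0 (edgeR adjusted p = 0.81). Gsta4 was 7.32-fold lower on day 14 than on day 3.

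Gsta3, a transferase known from liver and steroid-forming tissue, did the reverse. Its libraries held 17.3, 19.1, 17.6 and 19.3 FPKM on day 0, 1.09, 0.834, 1.16 and 0.896 FPKM on day 3, 3.69, 4.40, 4.31 and 5.21 FPKM on day 5 and 7.41, 6.90, 7.72 and 7.34 FPKM on day 7. Day 3 was 17.7-fold below day 0 (log2 fold change -4.14, standard error 0.12, edgeR adjusted p = 5.8e-21). The level climbed back to 11.2 to 12.5 FPKM on day 10 and 13.9 to 18.0 FPKM on day 12, where the log2 fold change was -0.32 and was not called without composition normalization (-0.18). It dropped again to 8.54 to 10.7 FPKM on day 14 (log2 fold change -1.07, standard error 0.099, edgeR adjusted p = 3.1e-10). Of 8 sebaceous gland markers, 7 fell on day 3. Their summed level went from 340 to 422 FPKM on day 0 to 262 to 290.5 FPKM on day 3. It did not follow Gsta3 on each day. On day 5 again 7 fell, but the sum was 402.1 to 456.7 FPKM, with Gsta3 at 3.69 to 5.21 FPKM. On day 12 also 7 fell, and the sum of every library was below those of day 3, with Gsta3 at 13.9 to 18.0 FPKM. The part of these glands was not tested.

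Gsta2 was low and fell on each day, from 2.88, 3.80, 2.76 and 3.60 FPKM on day 0 to 0.784, 0.429, 0.831 and 0.808 FPKM on day 3 (log2 fold change -2.13, standard error 0.27, edgeR adjusted p = 8.7e-08). On the later days the log2 fold change lay between -1.95 and -1.10. Gsta1 held 0.115 to 0.981 FPKM on day 0 and 3.10, 0.477, 0.772 and 0.833 FPKM on day 3, a rise (1.48, edgeR adjusted p = 0.034) that library 1 of day 3 set. Without that library it was 0.65 and not called, as without library 2 or 3 of day 0 (1.15 and 1.29), and without library 4 of day 0 it was 2.13. Leaving out libraries 1 and 4 of day 0 gave 2.81, and leaving out libraries 2 and 3 gave 0.84, not called. Both are uncertain, since 49.8% of the 50-base words of Gsta2 and 90.5% of those of Gsta1 occur in other genes. Gsta1, Gsta2 and Gsta4 lie on chromosome 9, and Gsta3 lies on chromosome 1.

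Mu class genes lie side by side on chromosome 3 from 107895854 to 108045179 (RefSeq, GRCm38.p6). Their summed level was lower on day 3, at 122.5 ± 3.01 FPKM against 295 ± 27.8 FPKM on day 0 (mean ± SD, n = 4). Gstm1, the most abundant, was at 131, 149, 153 and 144 FPKM on day 0 and 39.1, 41.7, 40.2 and 38.0 FPKM on day 3, 3.50-fold lower (log2 fold change -1.81, standard error 0.062, edgeR adjusted p = 2.3e-19). It came back in steps, to 60.8 to 72.7 FPKM on day 5, 85.0 to 91.5 FPKM on day 7 and 109.7 to 118 FPKM on day 12, and never reached day 0. Of the 6 genes tested, 4 fell on day 3 (34.8% of all genes fell), and Gstm4 and Gstm6 did not pass. Gstm5 fell by 1.14 on the log2 scale on day 3 (28.7 to 31.2 against 59.9 to 77.1 FPKM), and Gstm7 and Gstm2 fell by 0.85 and 0.61. Gstm5 on day 14 (-0.24) lost its call without library 2 of day 0 (-0.14) and without libraries 2 and 3 together (-0.05). Between days 3 and 14, 5 of the 6 genes tested rose (34.2% of all genes rose), Gstm6 the most (log2 fold change 1.38, standard error 0.25, edgeR adjusted p = 2.6e-05, 0.441 to 0.691 to 1.57 to 1.84 FPKM). For Gstm2 this rise (0.23) was lost without library 3 of day 14 (0.16). Gstm1 shares 18.9% of its 50-base words with other genes, mostly Gstm2-ps1.

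Pi class genes, neighbours on chromosome 19, differed in level and course. Gstp1, at 71.7 to 85.0 FPKM on day 0, passed the test on day 12 (-0.32) and not without composition normalization (-0.18). Gstp2 fell from 6.16, 7.98, 7.62 and 6.12 FPKM on day 0 to 3.28, 2.34, 2.92 and 1.91 FPKM on day 14 (log2 fold change -1.54, standard error 0.18, edgeR adjusted p = 3.4e-08), with -1.69 without libraries 1 and 4 of day 0 and -1.28 without libraries 2 and 3. Gstp3 was lower by 0.71 to 1.10 on the log2 scale throughout, with no difference among the wound days that passed the joint test. Gstp1 and Gstp2 share transcript sequence, with 33.7% and 54.3% of their 50-base words found in other genes. How reads from such sequence were counted is not given, so the values of both genes are uncertain.

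Theta, kappa and omega class genes differed in their courses. Gstt1 was lower on each day, most on day 14, when it was at 13.9 to 16.8 FPKM against 26.2 to 28.5 FPKM (log2 fold change -0.93, standard error 0.087, edgeR adjusted p = 4.7e-10). Its small fall on day 3 (-0.22) was lost when library 1, 3 or 4 of day 0 or any library of day 3 was left out (-0.16 to -0.20). Gstt3 fell on 5 of 6 days, by 0.86 on day 3, and of these day 14 was not called without library 4 of day 0 (-0.22). Gstt2 was higher on day 7 (0.63), at 7.27 to 8.22 FPKM against 6.42, 3.18, 3.34 and 6.94 FPKM on day 0. This was 1.24 without libraries 1 and 4 of day 0 and 0.19, not called, without libraries 2 and 3. Gstt4 rested on few counts, 10, 1, 5 and 1 on day 0 and 26, 36, 11 and 45 on day 3 (log2 fold change 2.81, standard error 0.77, edgeR adjusted p = 0.0021), with 3.70 on the log2 scale without library 1 of day 0. Gstk1, of mitochondria and peroxisomes, rose on day 3 (0.36) and fell on day 12 (log2 fold change -0.52, standard error 0.087, edgeR adjusted p = 1.6e-05).

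Gsto1, the omega transferase that reduces glutathionylated proteins, rose on days 3 to 10 and most on day 7, at 95.5, 92.1, 91.8 and 98.0 FPKM against 63.0, 38.9, 43.4 and 70.0 FPKM (log2 fold change 0.81, standard error 0.12, edgeR adjusted p = 1.8e-06). This rise was 1.20 without libraries 1 and 4 of day 0 and 0.50 without libraries 2 and 3. On day 14 it was 0.35, and it was not called without library 3 of day 14 (0.28) or without libraries 2 and 3 of day 0 (0.11), while without libraries 1 and 4 it was 0.74. Gsto2, at 0.235 to 0.413 FPKM on day 0, rose on days 3, 7 and 10 at low levels, with 1.05, standard error 0.26 on day 7 (edgeR adjusted p = 0.0014). Its rise on day 10 (0.75) was not called without library 4 of day 0 (0.59), and that of day 5 did not pass the test (edgeR adjusted p = 0.13).

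All 3 microsomal transferases fell on day 3 (34.8% of all genes fell) and rose between days 3 and 14 (34.2% of all genes rose). Mgst1, the most abundant of all transferases here, went from 298 to 359 FPKM on day 0 to 222 to 237 FPKM on day 3 (log2 fold change -0.49, standard error 0.057, edgeR adjusted p = 1.8e-08). Mgst2, which can make leukotriene C4, was lowest on day 3 (1.37 to 1.77 FPKM) and highest on day 10 (4.40 to 5.51 against 2.55 to 3.14 FPKM, log2 fold change 0.84, standard error 0.12, edgeR adjusted p = 1.6e-06). Mgst3 was at 56.0, 38.6, 36.9 and 63.6 FPKM on day 0, 23.5, 24.6, 23.0 and 23.4 FPKM on day 3 and 87.3, 82.8, 87.9 and 81.2 FPKM on day 14. It was below day 0 on day 3 (-0.99, with -0.61 without libraries 1 and 4 of day 0 and -1.24 without libraries 2 and 3) and above it on day 14 (log2 fold change 0.67, standard error 0.12, edgeR adjusted p = 1.5e-05), where the rise was 1.05 without libraries 1 and 4 of day 0 and 0.45 without libraries 2 and 3. From day 3 to day 14 it was 3.16-fold (log2 fold change 1.66, standard error 0.12, edgeR adjusted p = 1.3e-12).

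Nqo1, a quinone reductase that is a common readout of Nrf2, was lower on all 6 days. Its libraries held 4.02, 5.58, 5.38 and 4.50 FPKM on day 0, 3.59, 3.43, 3.17 and 3.17 FPKM on day 3 and 2.79, 2.46, 2.32 and 1.93 FPKM on day 7, the lowest day (log2 fold change -1.04, standard error 0.11, edgeR adjusted p = 5.4e-09). No library of a wound day reached the lowest of day 0, and the fall was still -0.55 on day 14. On day 3 (-0.49) it was -0.25 and not called without libraries 2 and 3 of day 0. It went the opposite way to Gclm, Gsr, Prdx1, Srxn1 and Txnrd1 on each day.

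Day 14 against day 3 set the late wound against the early one without the libraries of day 0. Of the 47 genes, 16 rose and 19 fell, where 34.2% and 32.8% of all genes did. Without composition normalization 21 rose and 17 fell, and with upper quartile normalization 19 and 17. By the larger limits 4 rose (9% of all genes), namely Gsta3 (8.39-fold), Gpx2, Gclc and Mgst3, and 6 fell (9.58%), namely Gstt4, Gsta4, Sod3, Gsr, Sod2 and Gpx3. For Gsr the fall was 3.48-fold and for Sod3 6.04-fold (log2 fold changes -1.80 and -2.60). Over the same interval all 11 hair follicle markers rose and 9 of 10 neutrophil markers fell, and their part was not tested.

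**Figure D5:**
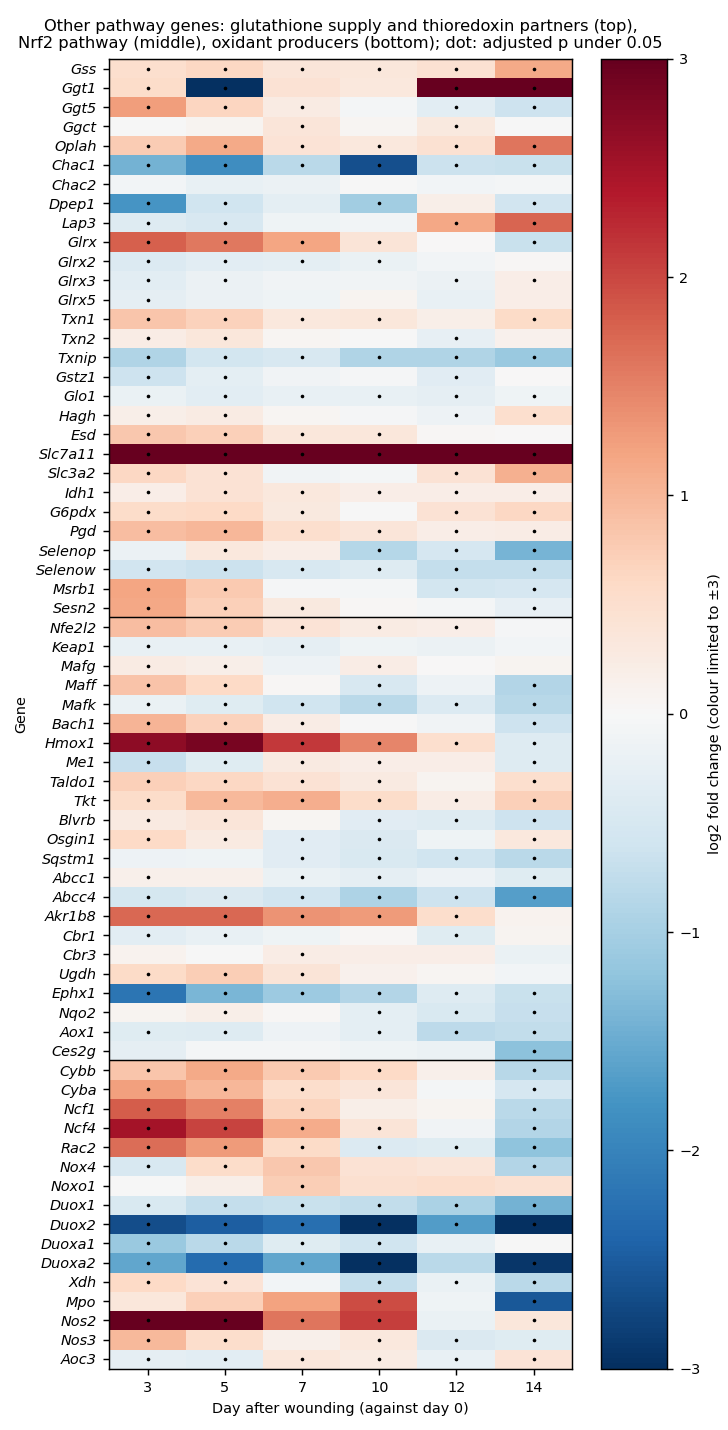
Log2 fold change of other genes of glutathione supply and thioredoxin (top), the Nrf2 pathway (middle) and oxidant production (bottom) on days 3 to 14 against day 0. Red is higher, blue lower, colours stop at 3, and a dot marks an adjusted p under 0.05. Slc7a11 is red on all 6 days, and 12 of the 16 oxidant producers are lower on day 14.

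Genes that feed the enzymes were read from 3 lists. Of 29 genes of glutathione supply and thioredoxin, 16 rose and 10 fell on day 3, where 31.8% and 34.8% of all genes did, and 12 rose and 10 fell on day 14, where 28.2% and 34.5% did. Their median log2 fold change was 0.19 on day 3 and 0.04 on day 14, beside -0.03 and -0.06 over all genes. Slc7a11, which imports cystine, was at 0.177, 0.126, 0.0733 and 0.221 FPKM on day 0 and 7.40, 7.36, 7.94 and 8.62 FPKM on day 3, 54.7-fold higher (log2 fold change 5.77, standard error 0.20, edgeR adjusted p = 1.6e-19). It stayed raised on all days, with 4.12 on day 14. Txn1, the thioredoxin that peroxiredoxins use, rose on day 3 (log2 fold change 0.84, standard error 0.082, edgeR adjusted p = 6.7e-10), while Txnip, its inhibitor, fell (-0.91) and stayed lower on all 6 days. Glrx, a glutaredoxin, rose early (1.58 on day 5) and was lower on day 14 (-0.67). Chac1, which breaks glutathione down, fell on day 5 (-1.86, or -1.26 without libraries 1 and 4 of day 0), and Oplah and Selenow changed by 1.15 and -0.64 on that day. On day 14, when Gclc was higher, so were Gss, glutathione synthetase (log2 fold change 1.14, standard error 0.077, edgeR adjusted p = 7.5e-13), Lap3 (1.75) and Oplah (1.60). Their early courses differed. On day 3 Gss and Oplah were at 0.51 and 0.77, and Gclc was at -0.30. Lap3 was at -0.39 on that day, or -0.10 and not called without libraries 1 and 4 of day 0. Ggt1, which splits extracellular glutathione, was at 0.0683, 0.0494, 0.0793 and 0.0601 FPKM on day 5 and 14.5, 14.5, 13.2 and 12.3 FPKM on day 14, against 1.09, 0.37, 0.371 and 0.526 FPKM on day 0 (log2 fold changes -3.13 and 4.40). Without libraries 1 and 4 of day 0 these were -2.46 and 5.08.

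Of 23 genes of the Nrf2 pathway, 12 rose and 7 fell on day 3 (all genes: 31.8% and 34.8%), and 3 rose and 13 fell on day 14 (28.2% and 34.5%), with medians of 0.16 and -0.38. Nfe2l2 itself was at 40.9, 42.5, 44.1 and 43.5 FPKM on day 0 and 76.0, 79.7, 74.8 and 80.2 FPKM on day 3 (log2 fold change 0.92, standard error 0.042, edgeR adjusted p = 7.6e-17) and did not pass on day 14 (edgeR adjusted p = 0.37). Keap1 changed by -0.21 on day 3 with overlapping libraries, a call that was lost without library 1 or 4 of day 0 (-0.10 in each case), without both (-0.01) and without library 1, 3 or 4 of day 3 (-0.16, -0.14 and -0.16). Hmox1, which degrades heme, rose 6.39-fold on day 3 (38.9 to 58.1 to 271 to 285 FPKM, log2 fold change 2.68, standard error 0.09, edgeR adjusted p = 1.3e-19) and was below day 0 on day 14 (-0.38). Akr1b8 and Bach1 rose by 1.72 and 1.03 on day 3, and Ephx1, Me1 and Abcc4 fell by 2.20, 0.68 and 0.53, of which Abcc4 was at -0.17 and not called without libraries 2 and 3 of day 0.

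Of 16 tested genes of oxidant-producing enzymes, 8 rose and 6 fell on day 3 (all genes: 31.8% and 34.8%), and 2 rose and 12 fell on day 14 (28.2% and 34.5%), with medians of 0.47 and -0.83. Subunits of the phagocyte NADPH oxidase rose on day 3, with Ncf4 at 2.50, Ncf1 at 1.81 and Cybb at 0.83, and Nos2, the inducible nitric oxide synthase, at 3.40. On day 14 Cybb was below day 0 (log2 fold change -0.84, standard error 0.082, edgeR adjusted p = 9.9e-10). Duox2, Duoxa2 and Duoxa1, the dual oxidase of epithelia and its maturation factors, fell on day 3 (-2.66, -1.57 and -1.12), where Duoxa2 was at -2.19 without library 1 of day 3 and at -1.21, not called, without libraries 2 and 3 of day 0. Duox2 was at -1.82 without that pair. Neutrophil and macrophage markers rose on day 3 as well, and their part in the rise of these subunits and of Sod2, Sod3 and Gsr was not tested.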

How the data were processed

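RNA-seq was done on dorsal wound tissue of mice, 4 libraries on each of 7 days, from TRIzol RNA. Per the submitters' processing notes the authors used fastp, R 3.2.0 and mm10. The aligner, counter, annotation and strandedness are not given in the sources used here, so overlapping and antisense genes cannot be separated. The deposited counts are whole reads per gene symbol, not normalized, and the deposited FPKM are these counts divided by gene length and library total by the authors. Groups came from the labels.

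The counts were analysed with edgeR 4.0.16 (R 4.3.3) after filterByExpr, which kept 18107 of 29068 genes, with TMM factors and quasi-likelihood tests over all 28 libraries (21 residual degrees of freedom). P-values were adjusted by Benjamini-Hochberg over all genes tested. A call was an adjusted p under 0.05, and the limits of the study's methods (log2 fold change over 1.5, P under 0.05) were a further rule. The alternatives were other normalizations and filters, a replicate block, DESeq2 1.42.0, limma 3.58.1 on log2(FPKM + 1) or log2(FPKM + 0.1), fits on 8 libraries, and leaving out libraries; leaving out pairs of day 0 libraries was chosen after seeing the data. The scripts were tested on simulated data. Totals of 36706513 to 40655764 counts per library limit precision only for genes with few counts. No 2 libraries of a day agreed within counting noise. Replicate numbers were checked for pairing: r of same-numbered libraries was -0.0762 to 0.177 over 84 pairs, so they were not treated as pairs.

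The enzymes and the gene lists were chosen with earlier results of these data known. Genes were named by a rule: those listed by name, the most abundant and the most changed of each family, the 3 largest changes in either direction in each comparison, and the same in the other lists on the day with most calls, plus Nfe2l2, Keap1, Hmox1, Slc7a11, Txn1 and Cybb. Other enzymes, and Gss, Lap3, Oplah on days 3 and 14, Ggt1 on day 14 and Txnip, were named after their values were seen. Promoter windows were RefSeq's, and shared 50-base words were counted over GENCODE transcripts. 1 gene of the list of oxidant producers is not reported here and was left out of its counts. Protein sequences were not used here.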

Additional observations from a re-analysis of the deposited data

Results flagged for a closer look

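In 18 of 336 groups of 4 libraries (48 genes, 7 days) a library stood apart, in that its gap to the nearest of the others was a larger share of the whole range than Dixon's critical value for 4 libraries. Chance gives about 1 in 20 groups, or 16.8 here.

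Library 4 of day 5 was the highest for Prdx2 (120.5 FPKM, others 98.4 to 101.7), Prdx3 (110.8 FPKM, others 95.4 to 95.7), Sod2 (90.7 FPKM, others 79.5 to 81.4) and Sod3 (117.2 FPKM, others 95.4 to 98.6). This library also differed from the others of its day over all genes, with a median chi-square per gene of 4.99 to 5.41 in its 3 pairs against 1.47 to 1.66 in the other 3 pairs of that day and 0.455 from counting noise alone. Leaving it out lost no call of Prdx3, Sod2 or Sod3 on day 5, and Prdx2 was not called on that day.

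On day 0, Srxn1 was high in library 1 (13.4 FPKM), and Gpx7 (17.0 FPKM) and Gsto2 (0.235 FPKM) were low in library 4. On day 3, Cat was low in library 1 (109.5 FPKM), Gsta1 was high in library 1 (3.10 FPKM), Gsta2 was low in library 2 (0.429 FPKM) and Gstm3, at 1 or 2 counts, was low in library 3 (0.0213 FPKM). Gstm3 was high in library 1 of day 5 (0.0412 FPKM), and Gstp2 was high in library 4 of day 7 (5.18 FPKM). On day 10, Gsta3 was low in library 3 (11.2 FPKM) and Srxn1 was low in library 1 (19.7 FPKM). On day 14, Gstm5 was high in library 3 (70.7 FPKM), and Prdx5 (139.9 FPKM) and Sod1 (312.7 FPKM) were low in library 4.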

How the results depend on the processing

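The 29 counts of enzyme genes were recomputed in 614 alternatives, of which 590 stayed within 1.5 times, and all 24 that did not were counts by the larger limits. Downwards on day 14, the count went from 2 to 1 with upper quartile normalization, without composition normalization, with edgeR or DESeq2 on 8 libraries, with limma on log2(FPKM + 0.1) and without libraries 2 and 3 of day 0, and to 0 with limma on log2(FPKM + 1), both over all genes tested and over those with a mean of at least 1 FPKM. With the same pair of limma fits, the counts went from 2 to 1 downwards on day 5, from 1 to 0 downwards on day 10 and from 2 to 1 upwards on day 14. Without libraries 1 and 4 of day 0 the upward counts of days 7 and 10 went from 0 to 1. Leaving out libraries gave 1 to 2 downwards on day 5, 0 to 1 in either direction on day 7 and 1 to 3 downwards on day 14. The cause was not tested.

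Of 329 single-gene results, 273 kept direction and call in each alternative that gave a value, 56 lost the call in at least 1, and none reversed. The most frequent losses were without libraries 2 and 3 of day 0 (27) and with edgeR on 8 libraries (19), which has fewer samples.

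With a replicate block, the calls lost were those of Cat on days 7 and 10 (-0.13 in both) and of Gsta1 between days 3 and 14, and no other. The count of falls on day 7 went from 15 to 14, and between days 3 and 14 from 16 and 19 to 17 and 18. Of 84 same-numbered pairs 1 had r over 0.1, and the same number correlated best in 36 of 168 combinations.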
